A study of Mus musculus with 116 samples.

Results

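The 2 ribosomal RNAs (rRNAs) encoded by the mitochondrial genome, mt-Rnr1 and mt-Rnr2, were followed through RNA-seq libraries of 1 to 10 mouse cells. Both were chosen by name, as 2 of the 40202 gene symbols in the count files, and the choice was made with the mitochondrial shares of these libraries already known. The libraries came from nanoSPLITS, in which a nanodroplet of cell lysate is split so that RNA and protein can be measured from the same cell. C10 is a mouse lung line labelled as alveolar type II epithelium, and SVEC is a mouse endothelial line. Neither line was treated, and no batch, date or separate culture is given. In the C10 input series, 8 libraries were of 1 cell, 6 of 3 cells and 6 of 10 cells, and separate sets of 48 libraries each held single cells of C10 and SVEC. Of the 116 libraries, 114 were used, because 2 C10 single-cell libraries held fewer than 1000 counts. Each group is cells of 1 established line, so differences between the lines are differences between these cultures, and any batch that goes with the line cannot be told apart from it.

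Mitochondria carry their own small genome and their own ribosomes. mt-Rnr1 encodes the 12S rRNA, the RNA core of the small mitochondrial ribosomal subunit, and mt-Rnr2 encodes the 16S rRNA of the large subunit, which holds the peptidyl transferase centre. The genes lie side by side near the start of the heavy-strand transcript, separated by the valine tRNA gene and followed by the leucine tRNA gene and ND1. A mature ribosome contains 1 copy of each rRNA. Cells usually hold more of the mitochondrial rRNAs than of the mitochondrial mRNAs, which encode subunits of the respiratory chain and of ATP synthase.

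In the GENCODE M21 transcripts, which are on build GRCm38, mt-Rnr1 is 955 bases long and mt-Rnr2 is 1582 bases long, the same lengths as in the RefSeq table. Runs of A are shown because this kind of full-length cDNA kit starts reverse transcription with an oligo-dT primer, and rRNAs carry only very short A tails. mt-Rnr1 held 2 runs of at least 5 A, the longest of 5 bases, and mt-Rnr2 held 9 such runs, the longest of 7 bases. That is 2.09 runs per 1000 bases in mt-Rnr1 and 5.69 in mt-Rnr2, although the share of A was nearly the same, 37.8% and 38.2%. The last 120 bases of each gene held 0 such runs. The part that runs of A play in the counts was not tested. In the sequences, written 5′ to 3′ on the sense strand, capitals mark runs of at least 5 A, first in the 60 bases around the longest run and then in the last 120 bases.
mt-Rnr1, bases 608 to 667: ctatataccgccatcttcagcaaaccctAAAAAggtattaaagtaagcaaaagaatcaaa
mt-Rnr2, bases 368 to 427: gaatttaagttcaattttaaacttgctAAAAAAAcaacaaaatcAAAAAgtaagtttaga
mt-Rnr1, bases 836 to 955: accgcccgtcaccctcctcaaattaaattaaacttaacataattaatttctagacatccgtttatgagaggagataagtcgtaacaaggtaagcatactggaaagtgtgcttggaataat
mt-Rnr2, bases 1463 to 1582: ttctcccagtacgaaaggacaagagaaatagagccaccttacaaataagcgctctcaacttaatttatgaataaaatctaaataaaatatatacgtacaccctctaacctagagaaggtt

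Library totals ran from 430798 to 15385625 counts in the 1-cell libraries, from 83188 to 5911755 in the C10 single cells used and from 5122 to 2831907 in the SVEC single cells, with medians of 1881700 and 434945 in the last 2 groups. Many defining markers of the labelled cell types were absent. In C10 single cells 8 of 16 alveolar epithelial genes had no count in any library and the summed level had a median of 2.78 counts per 1000000 (CPM; 0 to 216). Sftpa1, Sftpb, Sftpc and Sftpd, which encode surfactant proteins, were among the genes at 0. In SVEC single cells 10 of 18 endothelial genes had no count, Kdr, Tie1, Vwf and Cldn5 among them, and the summed level had a median of 0.961 CPM (0 to 327). The groups are therefore called by their line names. 1 library stood apart: replicate 1 of the 1-cell group had 538 genes detected and 95.1% of its reads not aligned. Ratio and portion differences, rRNA fold changes and Spearman's rho values of the 1-cell group are given with and without it. Other results of that group include it unless stated.

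mt-Rnr1 and mt-Rnr2 were counted in each of the 114 libraries, and mt-Rnr2 had more counts than mt-Rnr1 in each of them. In the 1-cell libraries mt-Rnr1 took from 0.234% to 7.63% of counts, with a median of 0.428%, and mt-Rnr2 took from 1.44% to 33.0%, with a median of 2.97%. The top of both ranges was replicate 1. Its Wilson 95% interval for mt-Rnr1 was 7.55% to 7.71%, and the other 7 libraries reached at most 0.866% for mt-Rnr1 and 5.91% for mt-Rnr2. In the 3-cell libraries mt-Rnr1 took 0.223% to 1.38% of counts (median 0.613%) and mt-Rnr2 1.18% to 6.65% (median 3.18%). In the 10-cell libraries mt-Rnr1 took 0.349% to 1.77% (median 0.588%) and mt-Rnr2 1.99% to 8.39% (median 3.13%). The 3 groups overlapped over most of their ranges. In all 3, the library numbered 1 had the highest summed share of both rRNAs, at 40.6%, 8.04% and 10.2% for 1, 3 and 10 cells. The same libraries had the fewest counts on mitochondrial tRNA genes, at 1, 14 and 16. In libraries of several cells, more rRNA per cell and less of all other RNA cannot be told apart from a share. mt-Rnr2 was the most counted gene in 5 of 8 1-cell libraries, 6 of 6 3-cell libraries and 6 of 6 10-cell libraries.

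In single cells, the shares of both rRNAs lay lower in SVEC than in C10. Over 46 C10 cells mt-Rnr1 took 0.429% ± 0.230 of counts (SD; lowest 0.196%, median 0.386%, highest 1.68%), and over 48 SVEC cells 0.115% ± 0.117 (SD; lowest 0.0092%, median 0.0845%, highest 0.675%). mt-Rnr2 took 2.11% ± 1.64 in C10 (SD; lowest 1.13%, median 1.81%, highest 12.4%) and 0.801% ± 1.24 in SVEC (SD; lowest 0.0582%, median 0.492%, highest 8.27%). The ranges overlapped, but 43 of 48 SVEC libraries lay below the lowest C10 single cell for mt-Rnr1 and 42 of 48 for mt-Rnr2. mt-Rnr2 was the most counted gene in 43 of 46 C10 cells and in 3 of 48 SVEC cells, where its median rank was 8.5. mt-Rnr1 had a median rank of 15 in C10 and of 225.5 in SVEC. These levels are given as a description, with no test, because the mitochondrial shares of the groups were known when the genes were chosen.

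**Figure D1:**
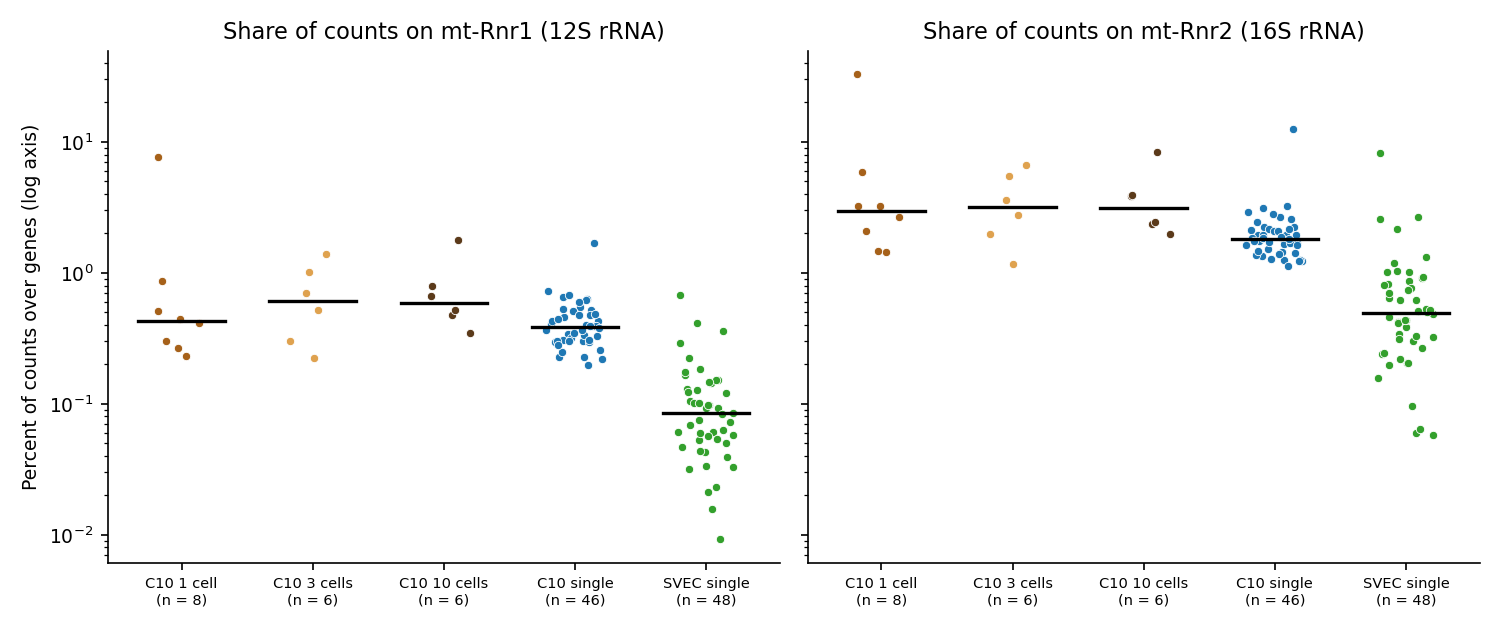
Percent of counts over genes on mt-Rnr1 (left) and on mt-Rnr2 (right), on a log axis, with 1 point per library and a bar at the group median. SVEC single cells lie lowest for both genes, at medians of 0.0845% and 0.492%, and 1 library of the 1-cell group lies far above the others, at 7.63% and 33.0%.

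A small number of single cells sat far from the rest of their line. C10 replicate 24 had the highest share of both rRNAs, 14.1% together, with 4912 genes detected and 16.8% of counts on mitochondrial mRNAs. SVEC replicate 24 was highest in its line, with 8.94% on both rRNAs and 18.6% on mitochondrial mRNAs, from 95959 counts and 1290 genes detected. The next highest SVEC libraries, replicates 9 and 20, held only 5122 and 6591 counts. In replicate 20, mt-Rnr1 rested on 10 counts, so that its share of 0.152% has a Wilson 95% interval of 0.0824% to 0.279%. At the other end, SVEC replicate 42 had 945241 counts and 87 of them on mt-Rnr1, a share of 0.0092% (interval 0.0075% to 0.0114%). Low shares were thus found in deeply counted SVEC libraries, and the highest shares in shallow ones. Among the 42 SVEC libraries with at least 100000 counts, the share of both rRNAs was 0.583% ± 0.352 (SD), against 2.51% ± 1.86 in 45 such C10 libraries (SD).

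The ratio of mt-Rnr2 to mt-Rnr1 asks whether the rRNAs of the 2 ribosomal subunits were counted in fixed proportion. The ratio was computed per library as log2 of the mt-Rnr2 counts plus 0.5 over the mt-Rnr1 counts plus 0.5. It was 2.63 ± 0.24 in 1-cell libraries (SD, n = 8; 2.11 to 2.88), 2.43 ± 0.15 in 3-cell libraries (SD, n = 6; 2.27 to 2.71) and 2.36 ± 0.13 in 10-cell libraries (SD, n = 6; 2.23 to 2.54). It was 2.27 ± 0.33 in C10 single cells (SD, n = 46; 1.55 to 2.93) and 2.56 ± 0.80 in SVEC single cells (SD, n = 48; 0.47 to 4.08). Per base of gene length, mt-Rnr2 was at a median of 2.99 times the level of mt-Rnr1 in C10 single cells and of 3.74 times in SVEC single cells. The groups overlapped in every comparison.

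Of 5 pairs of groups compared, C10 single cells against the 1-cell libraries of the input series passed the test. The log2 ratio was lower in the single cells by 0.36 (permutation test, two-sided, adjusted p = 0.0250 over 5 pairs). These are separate sets in the labels that also differ in depth, with median totals of 1881700 and 10157100 counts, so the set and the depth cannot be told apart. C10 and SVEC single cells differed by -0.29 in their means, with an adjusted p of 0.0577 (permutation test, two-sided). Their medians differed by -0.32, with an adjusted p of 5.5e-04 by the same kind of test. The SDs were 0.33 and 0.80, so this test does not separate a shift from unequal spread. Among libraries of 300000 to 1500000 counts the means differed by -0.31 (permutation test, p = 0.174, n = 14 and 27). The cells are of 1 culture label per line, so these p-values measure the spread between cells only. In the input series, the 10-cell libraries lay 0.27 below the 1-cell libraries on the log2 scale (exact permutation test, two-sided, adjusted p = 0.0577), the 3-cell libraries 0.20 below them (adjusted p = 0.128 by the exact permutation test) and the 10-cell libraries 0.07 below the 3-cell libraries (adjusted p = 0.409 by the exact permutation test). Replicate 1 of the 1-cell group, with the lowest ratio of its group, decided the calls of 10 and of 3 cells against 1 cell. Without it, the 10-cell difference in ratio was -0.34 (exact permutation test, adjusted p = 0.00583), the 3-cell difference was -0.27 (exact permutation test, adjusted p = 0.0146) and the single-cell difference was -0.43 (permutation test, adjusted p = 0.00583). Without replicate 1 of all 3 input groups, they were -0.32 and -0.24 (exact permutation tests, adjusted p = 0.0152 and 0.0322 over 3 pairs). These libraries were left out after their values had been seen.

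As a description, the spread of the ratio is set beside its counting error, which leaves out amplification and the differences between cells. In SVEC single cells its SD of 0.80 stood against a median counting error of 0.0892 on the log2 scale, and in C10 single cells the SD of 0.33 stood against 0.0191. The lowest SVEC ratio, 0.47 in replicate 34, came from 1558 mt-Rnr1 counts in a library of 891961, and the highest, 4.08, from the 10 mt-Rnr1 counts of replicate 20. Among SVEC libraries with at least 100000 counts the SD was 0.78 (n = 42), close to that of all 48. Across libraries of a group, the levels of mt-Rnr1 and mt-Rnr2, as log2 CPM, went together with Pearson's r = 0.99 in 1-cell (n = 8), 3-cell (n = 6) and 10-cell (n = 6) libraries, 0.82 in C10 (n = 46) and 0.82 in SVEC (n = 48) single cells. Both levels share the library total, so these values are a description.

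**Figure D2:**
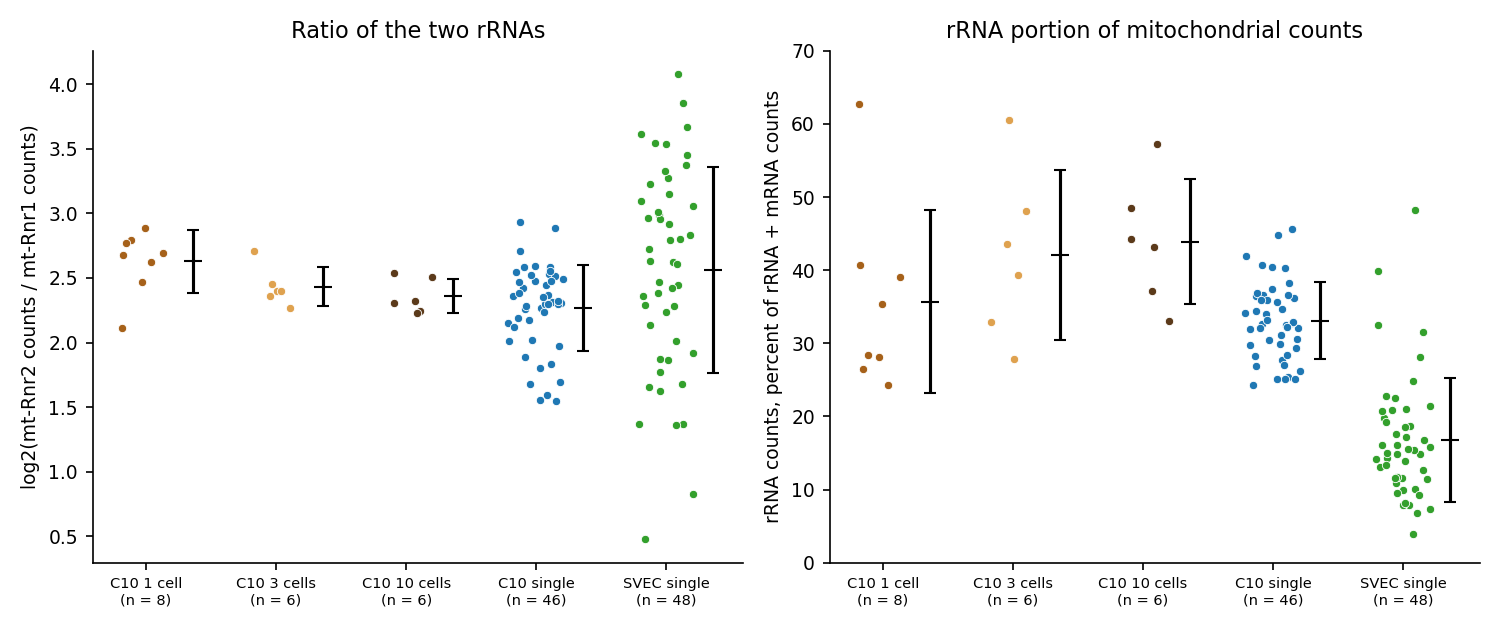
Left, log2 ratio of mt-Rnr2 to mt-Rnr1 counts; right, rRNA counts as a percent of mitochondrial rRNA plus mRNA counts, with 1 point per library, the group mean and its SD beside the points. The ratio spreads most in SVEC single cells, from 0.47 to 4.08, and the rRNA portion is lowest there, with a mean of 16.8%.

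The rRNAs were next set against the 13 mitochondrial mRNAs of the same library, a measure that does not depend on the nuclear RNA. The rRNA portion is the percent of mitochondrial rRNA plus mRNA counts that fell on mt-Rnr1 or mt-Rnr2. It was 33.1% ± 5.27 in C10 single cells (SD, n = 46; lowest 24.3%, median 32.8%, highest 45.6%) and 16.8% ± 8.44 in SVEC single cells (SD, n = 48; lowest 3.94%, median 15.2%, highest 48.2%). 42 of 48 SVEC libraries lay below the lowest C10 single cell. The means differed by 16.3 percentage points. The portion is built from mitochondrial counts whose summed share was known when the genes were chosen, so it is given as a description, with no p. The mitochondrial mRNAs themselves took 4.93% ± 2.04 of the counts of C10 and 3.93% ± 3.50 of those of SVEC (SDs over 46 and 48 cells), so the lines differed less in the mRNAs than in the rRNAs as shares of counts.

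The lines also differed in depth: SVEC libraries had fewer counts and fewer genes detected (medians 4404 and 6103) and more reads that did not align (medians 36.1% and 28.3%). In SVEC the rRNA portion was higher in shallower libraries (Spearman's rho with log2 total counts -0.588, n = 48), and the highest portions, 48.2% and 39.9%, were in its shallowest libraries, replicates 20 and 9. The same rho was -0.228 in C10 (n = 46). Between the lines, SVEC had both fewer counts and the lower portion. The part of depth was not tested. Spearman's rho of the portion with the percent of reads not aligned was 0.279 in C10 and 0.211 in SVEC. The part of unaligned reads was not tested. Among libraries of 300000 to 1500000 counts, a range chosen after seeing the data because both lines fill it, the portion was 34.2% ± 6.46 in C10 (SD, n = 14; 25.2% to 45.6%) and 13.8% ± 5.03 in SVEC (SD, n = 27; 3.94% to 24.8%). The lines did not overlap there, and their means differed by 20.4 points.

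**Figure D3:**
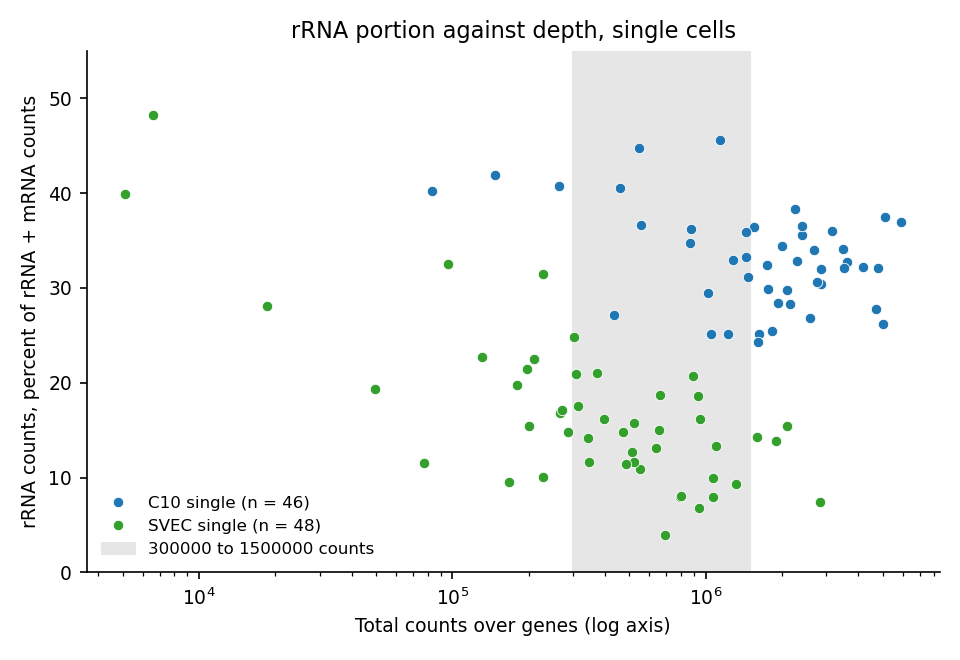
rRNA counts as a percent of mitochondrial rRNA plus mRNA counts against total counts over genes (log axis), with 1 point per single-cell library. In the shaded range of 300000 to 1500000 counts the C10 libraries lie at 25.2% or more and the SVEC libraries at 24.8% or less.

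In the input series the rRNA portion was 35.7% ± 12.5 in 1-cell (SD, n = 8; 24.4% to 62.8%), 42.1% ± 11.6 in 3-cell (SD, n = 6; 27.9% to 60.6%) and 43.9% ± 8.53 in 10-cell libraries (SD, n = 6; 33.0% to 57.2%). The groups overlapped, and their means differed by 8.22, 6.42 and 1.80 points for 10 against 1, 3 against 1 and 10 against 3 cells. C10 single cells differed by -2.60 points from the 1-cell libraries. Without replicate 1 of the 1-cell group, the 1-cell mean was 31.8% ± 6.51 (SD, n = 7), 10 and 3 cells lay 12.1 and 10.3 points above it, and C10 single cells lay 1.27 points above it. Without replicate 1 of all 3 groups the differences were 9.42, 9.09 and 0.336 points. The rRNAs outnumbered the mRNAs in 1 library of each input group and in 0 of the 94 single cells.

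Levels were also compared between genes per 1000 bases of gene length. In C10 single cells mt-Rnr2 stood at a median of 11461 CPM per 1000 bases, next to COX3, which encodes a subunit of cytochrome c oxidase, at 10646. mt-Rnr2 had the highest level per 1000 bases of the 15 rRNA and mRNA genes in 34 of 46 C10 cells. In SVEC single cells it stood at 3112 and was highest in 4 of 48, while CYTB, which encodes cytochrome b, stood at 6902 and COX2 at 6027. In the input series the medians of mt-Rnr2 were 18769, 20114 and 19786 for 1, 3 and 10 cells, and it was highest in 6 of 8, 5 of 6 and 6 of 6 libraries. mt-Rnr1, the rRNA nearer the start of the transcript, was at 4039 in C10 and 885 in SVEC single cells and at 4483, 6420 and 6162 in the input groups, below mt-Rnr2 in each group. Short genes and genes that overlap a neighbour, such as ATP8 with ATP6 and ND4L with ND4, may lose reads that were counted as ambiguous, so their levels are uncertain.

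**Figure D4:**
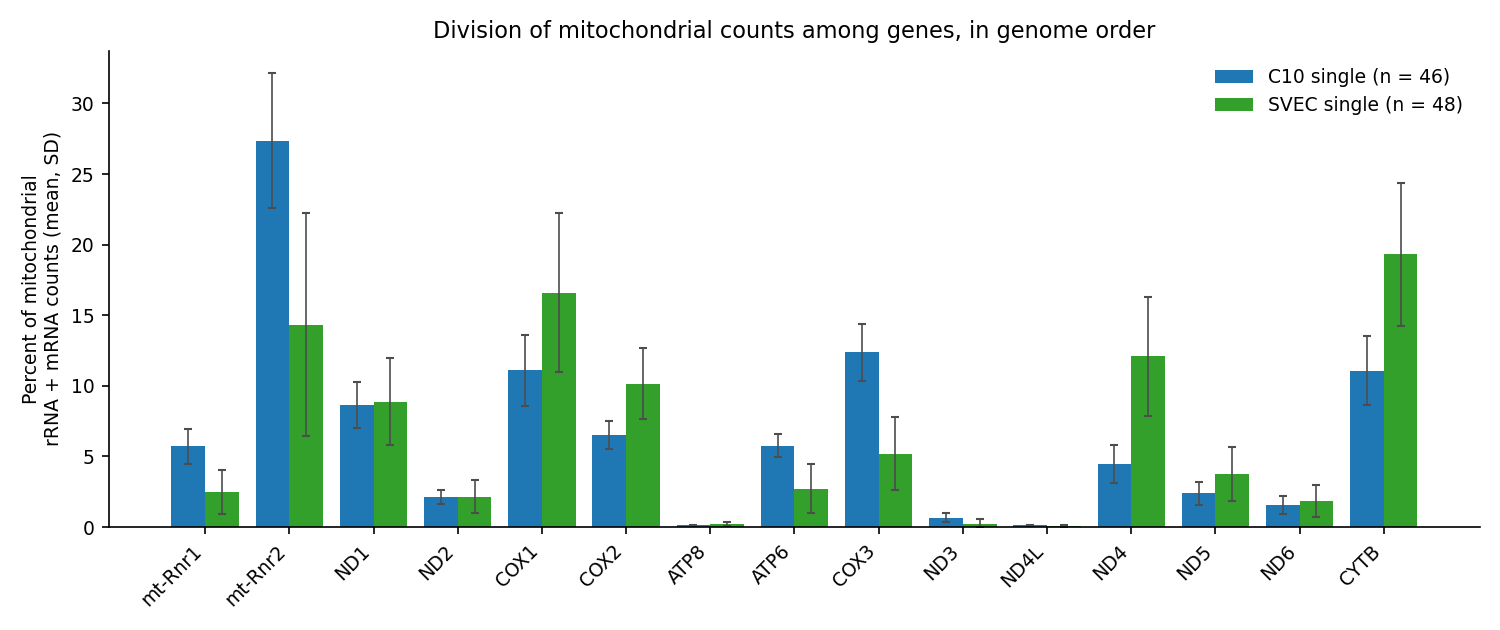
Mean percent of mitochondrial rRNA plus mRNA counts on each of the 15 genes, in genome order, with the SD over libraries (lower ends cut at 0), for C10 and SVEC single cells. mt-Rnr2 holds 27.3% in C10 and 14.3% in SVEC, and CYTB 11.1% and 19.3%.

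Within the mitochondrial counts of single cells, mt-Rnr1 held 5.72% ± 1.23 in C10 and 2.46% ± 1.57 in SVEC, and mt-Rnr2 27.3% ± 4.78 and 14.3% ± 7.89 (SD, n = 46 and 48). COX3 was also higher in C10, at 12.4% ± 2.03 and 5.19% ± 2.57, as was ATP6, which encodes a subunit of ATP synthase, at 5.77% ± 0.808 and 2.72% ± 1.73. The shares of CYTB (11.1% ± 2.44 and 19.3% ± 5.05), COX1 (11.1% ± 2.51 and 16.6% ± 5.65) and ND4 (4.46% ± 1.35 and 12.1% ± 4.22) were higher in SVEC. ND1, which follows the rRNAs in the genome, held 8.66% ± 1.61 in C10 and 8.87% ± 3.09 in SVEC. These are parts of 1 total, so a lower part for the rRNAs raises the others.

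Fold changes came from edgeR's quasi-likelihood fit over all genes, and for the rRNAs they are given without a p. In C10 against SVEC single cells, mt-Rnr1 was higher by 2.63 (SE 0.18) and mt-Rnr2 by 2.25 (SE 0.21) on the log2 scale. The median of all 9303 genes tested was 0.35, so that they stood 2.28 and 1.90 above it. Scaling by library totals alone put that median at 0.01 and the rRNAs at 1.91 and 1.40. Of the 13 mitochondrial mRNAs, 10 were called higher in C10 at an adjusted p under 0.05 and 0 lower, with a list median of 1.11. Mitochondrial shares were known when this list was set, so the calls of its genes are a description. They measure the spread between cells of 1 culture label per line only. The calls are also uncertain, because on simulated single cells a large part of edgeR's calls fell on unchanged genes. The background was 14.4% of all tested genes called higher and 4.48% called lower, 18.9% in all. Of those calls 76.2% were higher in C10, and 58.7% with library totals.

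COX3 and ATP6 were called higher in C10, by 2.63 (SE 0.19) and 2.35 (SE 0.19), and so were ND3 and ND4L, subunits of complex I, by 2.85 (SE 0.44) and 2.55 (SE 0.51). ND3 was counted in 33 and ND4L in 26 of 48 SVEC cells, against 46 of 46 C10 cells for each. ND2 (1.31), ND1 (1.19) and ND6 (1.11) followed, and the calls for ND5 (0.63), COX1 (0.68) and COX2 (0.65) were lost with the limma test. With library totals ND6, COX1 and COX2 were no longer called, and ND5, at -0.072, changed sign. The other 3 genes did not pass: CYTB at 0.40, ATP8 at 0.52 and ND4 at -0.20. CYTB and ATP8 were at -0.19 and -0.061 with library totals. With library totals 6 mRNAs were called higher and 1, ND4, lower, and with limma 7 higher and 1 lower, where 31.1% of all genes were called higher and 3.53% lower.

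Within a group, libraries with more mitochondrial mRNA had more rRNA. Spearman's rho of the summed rRNA CPM with the summed mRNA CPM was 0.786 in 1-cell (n = 8), 0.657 in 3-cell (n = 6) and 0.714 in 10-cell (n = 6) libraries, 0.604 in C10 (n = 46) and 0.744 in SVEC (n = 48) single cells. Pearson's r on log2 CPM was 0.89, 0.72, 0.86, 0.77 and 0.79 in the same order. Without the 2 libraries farthest from the median mRNA level, r was 0.55, -0.24, 0.61, 0.51 and 0.72, so that the 3-cell relation rests on those libraries. The 1-cell rho was 0.679 without replicate 1 (n = 7). Levels per count of nuclear genes gave rho of 0.640 in C10 and 0.764 in SVEC. All of these are descriptions over libraries that share a total as denominator.

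With the number of genes detected the relation was negative. Spearman's rho was -0.738, -0.600 and -0.714 in libraries of 1, 3 and 10 cells (n = 8, 6 and 6), -0.394 in C10 (n = 46) and -0.549 in SVEC (n = 48) single cells. Pearson's r on log2 CPM was -0.93, -0.66, -0.83, -0.38 and -0.59. Without the 2 libraries farthest from the median number of genes, r was -0.71, 0.34, -0.59, -0.46 and -0.57, and the 3-cell relation again rests on them. The 1-cell rho was -0.607 without replicate 1 (n = 7). Depth enters both measures: rho with log2 total counts was -0.463 in C10 and -0.714 in SVEC. With genes expected at 100000 counts in place of genes detected, rho was -0.270 in C10 (n = 45) and -0.382 in SVEC (n = 42). The mitochondrial mRNAs had rho of -0.504 and -0.536 with genes detected in C10 and SVEC. The ratio of the rRNAs to each other had rho of 0.144 and -0.022, near 0 in both lines. With the percent of reads not aligned, rho of the summed rRNA CPM was 0.857, 0.829 and 0.771 in libraries of 1, 3 and 10 cells. The 1-cell value was 0.786 without replicate 1 (n = 7). In single cells this rho was 0.334 in C10 and 0.220 in SVEC. The cause was not tested.

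**Figure D5:**
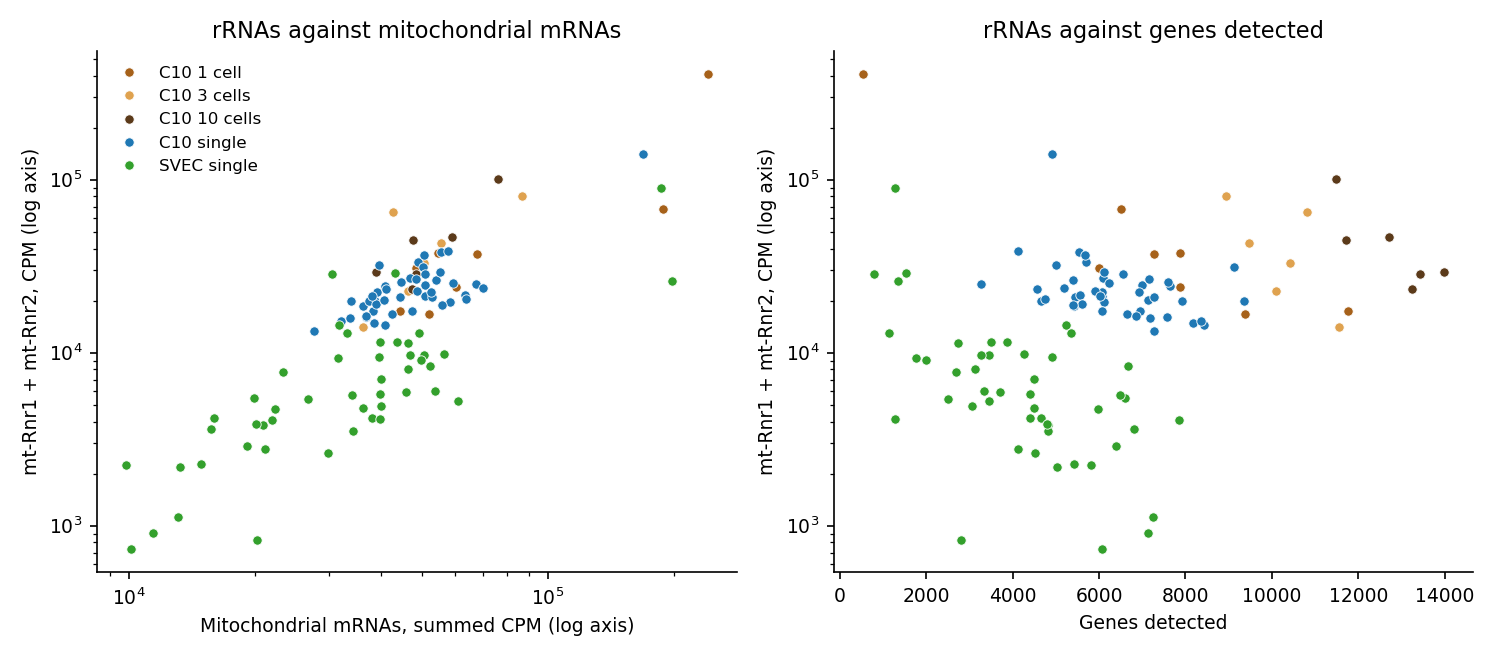
Summed CPM of mt-Rnr1 and mt-Rnr2 (log axis) against the summed CPM of the 13 mitochondrial mRNAs (left, log axis) and against genes detected (right), with 1 point per library in the colour of its group. The clouds of C10 and SVEC single cells overlap in part, with most SVEC libraries lower in rRNA where the mRNA levels overlap. In summed rRNA share 43 of 48 SVEC libraries lie below the lowest C10 single cell. The 1-cell library with 538 genes detected lies at the top left on the right.

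The genes whose CPM went most closely with the summed rRNA CPM were ranked by Spearman's rho over single cells with at least 100000 counts, among genes counted in at least 90% of them. In C10 (45 libraries, 1887 genes) the closest mitochondrial genes were COX3 (0.728), ND3 (0.692), COX2 (0.558), ND1 (0.542) and ATP6 (0.486). In SVEC (42 libraries, 813 genes) they were CYTB (0.754), ATP8 (0.734), COX3 (0.725), ND2 (0.692) and COX2 (0.650). COX3 and COX2 were in both lists. In C10 13 mitochondrial genes were ranked and in SVEC 11, because ND3 and ND4L did not reach 90% detection there. Of other genes, the closest in C10 were Plekhg7 (0.625), Mt1, a metallothionein (0.556), LOC118568312 (0.551), Cox6c, a nuclear-encoded subunit of cytochrome c oxidase (0.543), and Atpif1, an inhibitor of ATP synthase (0.540). In SVEC they were Myo3a (0.759), Chchd2, a mitochondrial protein (0.694), Gm40009 (0.665), Cstb, a protease inhibitor (0.640), and Uqcr11, a subunit of complex III (0.634). Of the C10 genes, Mt1, LOC118568312, Cox6c and Atpif1 had rho of 0.235, 0.436, 0.580 and 0.360 in SVEC, where Plekhg7 was not ranked. The SVEC genes had rho of 0.461, 0.399, 0.184, 0.312 and 0.335 in C10, in the order given. The median rho over all genes ranked was -0.024 in C10 and 0.146 in SVEC.

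The nuclear genes that make, process or assemble the rRNAs were compared as a list of 48 genes in the files, of which 37 were tested between the lines. 5 were called higher in C10, a share near the 14.4% of all genes, and 0 lower, against 4.48% of all genes. The list median of 0.21 was below the 0.35 of all genes, so the list did not stand out as higher in C10. On simulated single cells a large part of edgeR's calls fell on unchanged genes, so calls of single genes are uncertain. The 5 were Rexo2, an RNA exonuclease (2.01, SE 0.42), Malsu1, which acts in large-subunit assembly (2.00, SE 0.61), Rcc1l, a factor for 16S rRNA stability (3.39, SE 0.76), Lrpprc, which stabilises mitochondrial mRNAs (2.86, SE 0.82), and Mrm1, which methylates the 16S rRNA (2.47, SE 0.86). The level of Rexo2 was 275 ± 161 CPM over 46 C10 cells and 77.8 ± 124 CPM over 48 SVEC cells (SDs). Mrm1 was counted in 15 of 46 C10 and 4 of 48 SVEC cells, and its call was lost with DESeq2, as was that of Malsu1 with library totals. With limma 12 factors were called higher, beside 31.1% of all genes.

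The proteins that bind the rRNAs in the ribosome were compared in the same way, against 14.4% of all genes called higher and 4.48% lower. Of 48 tested genes of the large subunit, Mrpl12, Mrpl15 and Mrpl36 were called higher in C10 and Mrpl49 lower. Of 29 of the small subunit, Mrps14, Mrps17, Mrps24, Mrps26, Mrps30 and Mrps33 were called higher and 0 lower. The list medians were 0.55 and 0.67, against 0.35 for all genes. The edgeR calls of these genes carry the same uncertainty from the simulated single cells. Mrpl49 was at 131 ± 115 CPM in C10 and 399 ± 341 in SVEC (SD, n = 46 and 48), a log2 difference of -1.18 (SE 0.42). Mrps33 was at 270 ± 127 and 108 ± 108 CPM, a log2 difference of 1.54 (SE 0.38). With library totals, 0 large-subunit genes were called higher and 1 lower, and 3 small-subunit genes higher and 2 lower, whereas limma called 25 and 13 higher, and 31.1% of all genes.

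In the input series the changes of the rRNAs fitted by edgeR were smaller than their errors. Against 1 cell, mt-Rnr1 was at -0.31 (SE 0.58) and mt-Rnr2 at -0.47 (SE 0.49) with 10 cells, and at -0.34 (SE 0.58) and -0.44 (SE 0.49) with 3 cells. Without replicate 1 of the 1-cell group these were 0.39 (SE 0.47), -0.02 (SE 0.46), 0.37 (SE 0.47) and 0.01 (SE 0.46). Over the other refits the 10-cell values ran from -1.64 (DESeq2) to 0.21 for mt-Rnr1 and from -1.73 (DESeq2) to 0.03 for mt-Rnr2, so that the direction depended on the fit. Between 10 and 3 cells they were 0.03 (SE 0.61) and -0.03 (SE 0.52). None of the 13 mitochondrial mRNAs was called in any of the 3 comparisons by edgeR, where 10.7%, 6.35% and 0% of 13645 genes were called for 10 against 1, 3 against 1 and 10 against 3 cells. Of all genes 10.6% were called higher and 0.0879% lower with 10 cells than with 1, and 6.07% higher and 0.278% lower with 3 cells than with 1. Without replicate 1 of the 1-cell group, 2.45% were called higher and 0.0147% lower with 10 cells. With 3 cells, 0.235% were then called higher and 0% lower. DESeq2 differed here: it called 11 of the 13 mRNAs lower with 10 cells than with 1 (list median -2.15, all genes -0.55) and 9 of 13 lower with 3 cells than with 1 (list median -1.56, all genes -0.40), where 0.982% and 1.86% of all genes were called lower. DESeq2 was not refitted without replicate 1 of the 1-cell group, which had 24.1% of its counts on mitochondrial mRNAs. For 10 against 3 cells 1346 genes had an unadjusted p under 0.05, and DESeq2 called 216 genes and limma 35. Of 45 factors tested by edgeR, 5, 3 and 0 were called higher and 0 lower. Without replicate 1 of the 1-cell group, 4, 1 and 0 were called higher and 0 lower.

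The tRNA genes that flank the rRNAs, TrnF, TrnV and TrnL1, had 0 counts in every group, which allows a share of at most 1.03e-05% of the 29017802 SVEC counts and less in the other groups. Of the 22 mitochondrial tRNA genes 2 had counts in any group, and TrnP held 96.3% to 99.9% of them. Reads that span a gene and its neighbour may have been set aside as ambiguous, and this was not tested. A scan of 55341 gene models for stretches of 31 bases shared with the rRNAs found 1 gene, Gm20594, with 42 such stretches shared with mt-Rnr2, and its median was 0 CPM in each group. Sequence outside these models was not scanned. The annotation of the count files is not given, so whether the scan covers all counted genes is not known. No read was counted as aligned in several places in any file, and how reads that align in several places were handled is not given in the sources used here.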

How the data were processed

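RNA was measured in 116 libraries. The authors deposited whole-number read counts per gene symbol, 1 file per library, with 5 closing counters. The submitters' processing notes name FastQC, STAR and HTSeq. Their versions, the genome build, the annotation and the strand setting are not given in the sources used here. Reads were 150 bases long, per the labels' protocols. No molecular identifiers are described, so intervals and limits for counts of 0 (3 counts) cover counting error only. No label gives separate cultures, so p-values measure the spread between libraries only. The members, gene lists and tests were chosen with earlier results of these data known.

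Mitochondrial genes (37) were those of the RefSeq table of GRCm38.p6, which matched 38730 symbols and gave names, lengths and neighbours. CPM used the sum over genes. Ratios were tested by permutation of group labels (exact, or 100000 resamples), adjusted by Benjamini-Hochberg over 5 pairs. The same test was planned for rRNA portions, which are given without p because mitochondrial shares were known. Genes were tested with edgeR 4.0.16 (TMM, quasi-likelihood, adjusted p under 0.05), on genes detected in at least 25% (single cells) or 50% (input series) of the libraries of a group, with DESeq2 1.42.0, limma 3.58.1 on log2(CPM + 1) and other scalings as alternatives, in R 4.3.3. On simulated single cells a large part of edgeR's calls fell on unchanged genes. Named genes were the rRNAs, the mitochondrial genes, called factors by size of fold and the 5 most alike genes of each kind in each line. Over all genes, same-numbered libraries deviated together weakly at most: 0 pairs of the input series had r over 0.1, and 1 of 46 in single cells. The own number was the best match for 1, 3 and 2 of 6 libraries in 10 against 1, 3 against 1 and 10 against 3 cells. In single cells it was the best match for 1 of 46. Number 1 had the highest rRNA share and the fewest mitochondrial tRNA counts in each input group. A shared origin of same-numbered libraries was not tested further. The closest libraries of a group differed by at least 3.23 in chi-square per degree of freedom, so none was a repeat deposit. The depth range, the left-out libraries, the sequence stretches and the ribosomal protein genes and single libraries named were chosen after seeing the data.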

Additional observations from a re-analysis of the deposited data

Results flagged for a closer look

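In each of the 3 input groups, 5 measures were searched for a library far from the others of its group. Of the 15 searches, chance flags about 1 in 20, or 0.75, and 5 were found. The measures are not independent, because the portion is built from both rRNAs and the levels of the rRNAs go together. The 5 flags also fall on the same few libraries, so their number cannot be set against 0.75. Replicate 1 of the 1-cell group had 7.63% of counts on mt-Rnr1 (others 0.234% to 0.866%), 33.0% on mt-Rnr2 (others 1.44% to 5.91%) and an rRNA portion of 62.8% (others 24.4% to 40.8%). Replicate 1 of the 10-cell group had 1.77% on mt-Rnr1 (others 0.349% to 0.789%) and 8.39% on mt-Rnr2 (others 1.99% to 3.90%).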

How the results depend on the processing

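The replicate block, which pairs libraries by number, changed no ratio call in the 4 pairs it was run on. None of these pairs had passed without the block. The input pairs had 64 sign choices each, so that 1 such pair alone could hardly pass after adjustment. No stability of the calls can therefore be read from the block. C10 single against 1-cell libraries, which passed without the block, were not blocked. The blocked log2 ratio differences were -0.20, -0.13, -0.07 and -0.32 for 10 against 1, 3 against 1, 10 against 3 cells and C10 against SVEC, and the portion differences 6.64, 4.84, 1.80 and 16.0 points. Without replicate 1 of the 1-cell group, ratio differences of -0.34 and -0.27 passed, the 10-cell portion difference rose to 12.1 points (9.42 without replicate 1 of all input groups), and the single-cell one reversed to 1.27. With those 3 libraries left out the ratio differences were -0.32 and -0.24, and passed. The difference of medians, -0.32 for C10 against SVEC, passed, with unequal spreads in the 2 lines. The difference of means did not pass with 10 added to the counts (-0.22, permutation test, adjusted p = 0.116). Nor did it with at least 100000 counts (-0.25, permutation test, adjusted p = 0.0856) or with 300000 to 1500000 counts (-0.31, permutation test, p = 0.174). Genes called for 10 against 1 cell numbered 1456, but 48 without the filter, 336 without that library and 0 with the block. For 3 against 1 cell they numbered 866, but 121 with limma, 65 without the filter, 32 without that library and 0 with the block. For 10 against 3 cells they numbered 0, but 216 with DESeq2 and 35 with limma. For C10 against SVEC they numbered 1754, but 3223 with limma, 5437 without the filter and 3095 with the block. With the block 11 mitochondrial mRNAs, 12 factors, 13 large-subunit and 10 small-subunit genes were called higher in C10, beside 30.3% of all genes. With library totals ATP8, CYTB and ND5 reversed to -0.061, -0.19 and -0.072. With genes expected at 100000 counts, rho with the rRNAs moved to -0.905 in 1-cell and -0.382 in SVEC libraries. In the 1-cell group it was -0.857 without replicate 1. The causes were not tested. The rRNA fold changes between the lines kept their direction over 6 refits (1.91 to 2.77 and 1.40 to 2.44), whereas those of the input series changed sign. Depth limits SVEC most: 2 libraries had fewer than 30 mt-Rnr1 counts.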
